A study of Mus musculus with 6 samples.

Results

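Genomic imprinting leaves a gene active from only one parental chromosome, and the choice is kept by DNA methylation laid down in the egg or the sperm. Many imprinted genes set the pace of growth before and after birth, and their transcripts decline in several organs as juvenile growth slows. Genes active from the paternal copy, such as Dlk1, Peg3, Mest, Plagl1 and Ndn, and genes active from the maternal copy, such as H19, Meg3, Cdkn1c, Grb10 and Zim1, lie together in domains that share control elements. These 10 genes were examined in the growing mouse uterus. The members were all probe sets whose platform annotation gave exactly 1 gene symbol equal to one of the 10 names. This yielded 31 of the 41420 probe sets on the array, for 8 of the 10 genes. Meg3 had 11 probe sets, Ndn had 7, Peg3, Plagl1 and Grb10 had 3 each, Dlk1 had 2, and Mest and Zim1 had 1 each. No probe set met the rule for H19 or Cdkn1c.

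Uteri were taken from intact female mice at 2 weeks of age, with 3 Arid1a d/d samples and 3 Arid1a f/f samples, 1 Affymetrix array each. In the usual notation d is a deleted and f a floxed allele of Arid1a, whose protein is part of SWI/SNF, a machine that moves nucleosomes. By its title the study is about how glands of the endometrium form. The strain, the Cre driver, the deleted part of Arid1a and whether an array held 1 animal or several are not given in the sources used here, so p-values reflect how far these 6 samples spread, and that spread may be technical.

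Values below are log2 of the deposited RMA intensity, and a difference is the d/d mean minus the f/f mean, from a limma fit over all 41420 probe sets with Benjamini-Hochberg adjustment and a threshold of 0.05. The median of all values was 2.69, and a probe set at or below it is called dim here, since background limits the difference it can show. Levels of different probe sets are not set against each other. Array medians were 6.34 to 6.59 in linear units, and arrays correlated at 0.987 to 0.995 over all probe sets. The array d/d 1 stood apart from its genotype: it correlated at 0.991 to 0.9946 with the f/f arrays, and at 0.9901 and 0.9905 with d/d 2 and d/d 3. Over all probe sets, 217 passed, which is 0.524% (0.314% higher and 0.210% lower in d/d), and the count was 971 without d/d 1, 55 without d/d 2, 44 without d/d 3, 105 without f/f 1, 37 without f/f 2 and 41 without f/f 3. Arid1a had 6.98, 7.06 and 7.04 in d/d arrays and 7.54, 7.58 and 7.71 in f/f arrays (difference -0.58 ± 0.087 SE; limma adjusted p = 0.0342), and it passed without d/d 1 (0.0333) but not without any other single array (0.0814 to 0.142). Whether its probe set lies in the deleted part was not tested. The uterine genes Esr1, Pgr, Hoxa10 and Hoxa11 were all above 2.69 on the 6 arrays. Of 6 measured ovary markers, the steroid synthesis genes Star, Cyp11a1 and Hsd3b1 were dim on all arrays, and Foxl2, Amh and Fshr were above 2.69 on all arrays. Foxl2, a transcription factor also known from the uterus, lay between 7.37 and 7.84.

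None of the 31 member probe sets passed in the limma fit. At an unadjusted p under 0.05 there were 7, or 22.6% of the 31, where the share over all probe sets was 9.85%. At this level 5.07% of all probe sets were lower and 4.78% higher in d/d uteri. In 6 member probe sets, or 19.4%, the genotypes did not overlap and d/d was lower, where this held for 7.47% of all probe sets and for 9.22% of those above the median on all arrays. All 6 were among the 16 member probe sets above the median on all arrays. Of these 6, 5 measure Meg3, so they share a transcript and are not separate observations, and the sixth measures Peg3. In 1 member probe set, that of Zim1, d/d was higher without overlap, where this held for 6.67% of all probe sets and for 8.48% of those above the median on all arrays. The lower Meg3 and Peg3 values in d/d uteri thus did not pass after adjustment. Taking each gene by its brightest probe set, the median difference of the 8 genes was -0.067, beside -0.011 over all 16813 genes.

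**Figure D1:**
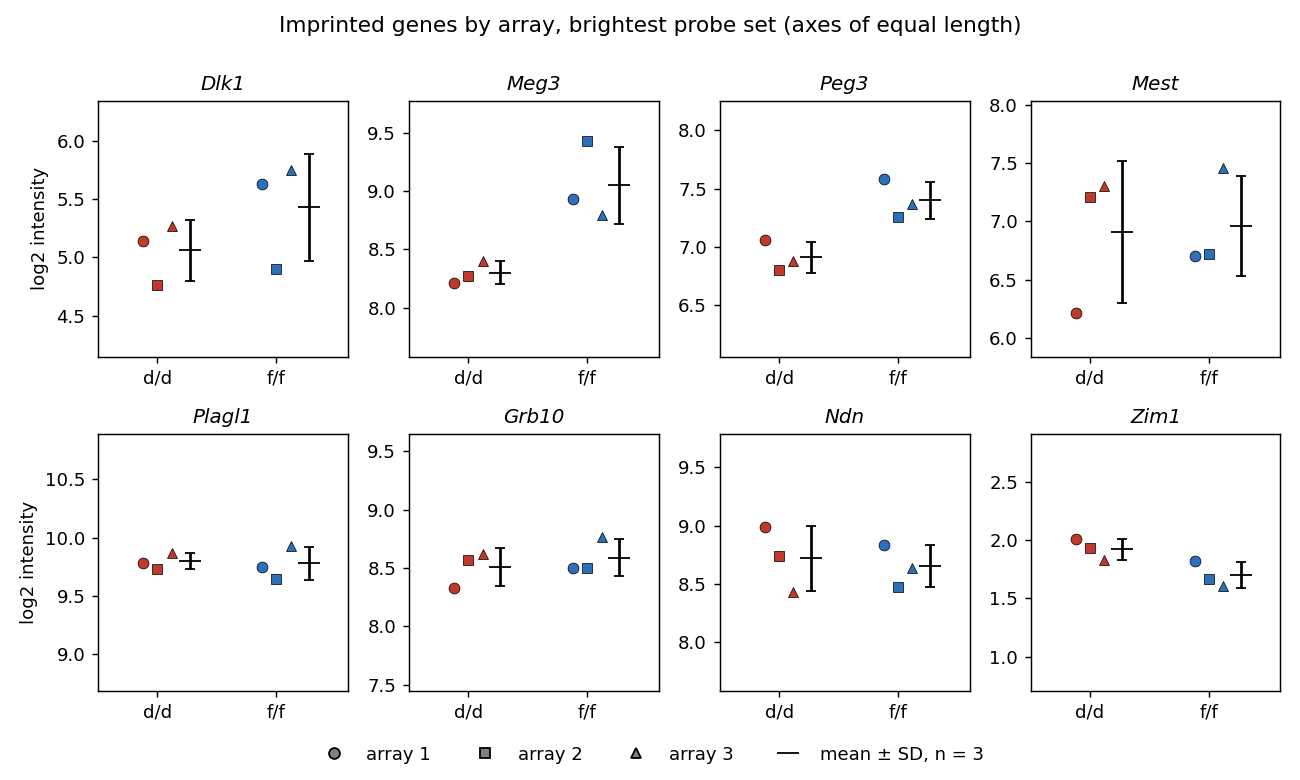
Log2 intensity (y axis, each panel spanning the same length of scale) of the brightest probe set of 8 imprinted genes in Arid1a d/d arrays (red, left) and Arid1a f/f arrays (blue, right). Symbols mark the array number and bars the mean ± SD of 3 arrays; Meg3 and Peg3 were lower in all d/d arrays, Mest had d/d values from 6.21 to 7.30, and Zim1 lay below 2.69 on all arrays.

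Promoter windows are shown for Meg3 and Peg3, the 2 genes whose brightest probe set was lower in d/d without overlap between genotypes. Sequences are from RefSeq on GRCm38.p6, where 8 of the 10 genes had 12 windows, each from 250 bases before to 50 bases after a start. Capitals mark TGACGTCA, the full cAMP response element, a palindrome that reads the same on both strands.
Meg3 at chr12:109540746-109541045, plus strand: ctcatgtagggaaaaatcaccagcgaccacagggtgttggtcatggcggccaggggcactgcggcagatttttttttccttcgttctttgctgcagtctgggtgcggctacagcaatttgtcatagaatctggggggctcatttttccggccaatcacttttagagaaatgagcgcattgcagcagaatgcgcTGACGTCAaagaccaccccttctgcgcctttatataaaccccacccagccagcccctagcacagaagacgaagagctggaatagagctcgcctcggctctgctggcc
Peg3 at chr7:6730370-6730669, minus strand: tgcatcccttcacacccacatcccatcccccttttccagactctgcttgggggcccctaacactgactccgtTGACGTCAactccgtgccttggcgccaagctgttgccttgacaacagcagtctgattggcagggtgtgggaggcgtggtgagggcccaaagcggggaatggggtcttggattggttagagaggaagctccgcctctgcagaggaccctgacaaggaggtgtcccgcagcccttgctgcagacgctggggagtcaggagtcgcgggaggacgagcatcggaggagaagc
Of the 2 windows of Meg3 the upstream one is shown, since the other held only 1 CG and none of the sequences searched. Each window shown held 1 TGACGTCA, a match found in 1.79% of the 32851 windows of the table, and the other 10 windows of the 8 genes held none. Each held 13 CG dinucleotides, the sites at which imprints are methylated, and 37.9% of all windows held at least as many. Searched on both strands, TGCCGC, the core letters bound by the imprint-keeping factor ZFP57, occurred 1 time in the Meg3 window and not in the Peg3 window, and it occurred in 11.6% of all windows. TATAAA had 2 matches in the Meg3 window, overlapping on opposite strands, and 0 in the Peg3 window (13.6% of all windows), while GGGCGG and AAGATGGCG, a YY1 sequence, had 0 in both (35.7% and 1.40% of all windows). These matches describe letters only, and binding and methylation were not measured here. Whether any match bears on the lower Meg3 and Peg3 levels was not tested.

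Meg3, a long noncoding RNA made from the maternal chromosome of the Dlk1-Dio3 domain, had the largest differences among the 8 genes. Its 5 probe sets with a mean level over 5, a boundary chosen after the values were seen, were 1.58-fold to 1.79-fold lower in d/d uteri, at differences of -0.84 to -0.66. The probe set 1436713_s_at had 5.82, 5.86 and 5.91 in d/d arrays 1, 2 and 3, against 6.65, 7.03 and 6.44 in f/f arrays 1, 2 and 3. Its difference was -0.84 ± 0.15 SE, with an unadjusted p of 0.000385 and a limma adjusted p of 0.0586. The probe set 1452183_a_at had 7.36, 7.45 and 7.66 in d/d arrays and 8.20, 8.61 and 8.13 in f/f arrays (difference -0.82 ± 0.14 SE; limma adjusted p = 0.0633). In both, the highest d/d value lay under the lowest f/f value, by 0.52 in 1436713_s_at and by 0.46 in 1452183_a_at.

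The other 3 of these probe sets gave the same order of genotypes. The brightest, 1439380_x_at, had 8.21, 8.27 and 8.40 in d/d arrays and 8.93, 9.43 and 8.79 in f/f arrays (difference -0.76 ± 0.16 SE; limma adjusted p = 0.112). The probe set 1426758_s_at had 6.31, 6.24 and 6.53 in d/d arrays and 7.05, 7.57 and 6.95 in f/f arrays (-0.83 ± 0.17; limma adjusted p = 0.0941). The probe set 1452905_at had 7.74, 7.74 and 7.82 in d/d arrays and 8.35, 8.73 and 8.18 in f/f arrays (-0.66 ± 0.14; limma adjusted p = 0.112). In all 5, d/d 3 was the highest of its genotype, f/f 2 the highest of the f/f arrays and f/f 3 the lowest, and d/d 1 was the lowest d/d array in 4. The 95% intervals of the 5 differences together ran from -1.22 to -0.34. The SD was 0.04 to 0.16 in d/d arrays and 0.26 to 0.34 in f/f arrays (n = 3 each).

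The remaining 6 Meg3 probe sets lay between 1.73 and 3.02 in d/d arrays and between 1.77 and 3.15 in f/f arrays. Of them 5 were dim on 1 or more arrays, and 3 of these on all arrays. All 6 differences were below 0 but small, from -0.15 to -0.04, with limma adjusted p of 0.736 to 0.962, and the genotypes overlapped in each. Averaged over all 11 probe sets, which takes in these 6, the Meg3 difference was -0.41. The position of the Meg3 probe sets within the transcript was not used here. The call of 2 probe sets turned on the setting: 1436713_s_at and 1452183_a_at passed with median centring (0.0472 and 0.0489) and with an intensity trend and robust variance (0.0385 and 0.0361), and 1436713_s_at passed with array weights (0.0499). Without d/d 1, 1436713_s_at passed at 0.0447, and without any other single array its adjusted p was 0.0776 to 0.245.

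**Figure D2:**
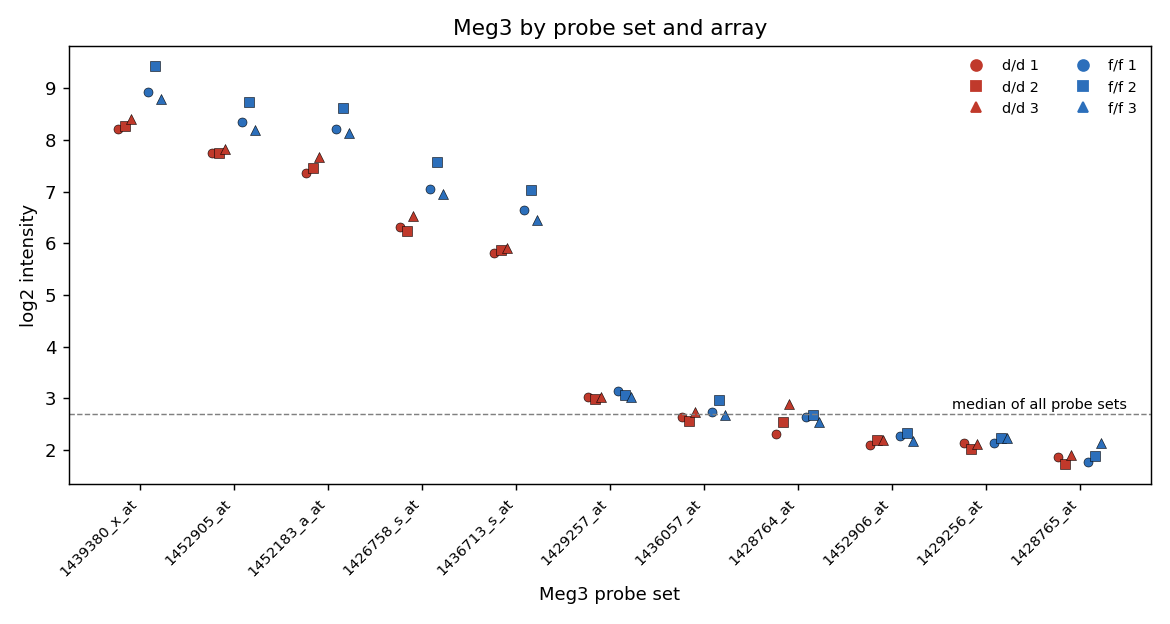
Log2 intensity (y axis) of the 11 Meg3 probe sets (x axis, by falling mean level) in d/d arrays (red, left in each column) and f/f arrays (blue, right), with the median of all probe sets, 2.69, as a dashed line. In the 5 probe sets on the left every d/d array lies below every f/f array. The 6 on the right lie between 1.73 and 3.15 with overlapping genotypes, and 3 of them are below the dashed line on all arrays.

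Genes that neighbour Meg3 were measured lower as well without passing. Rian and Mirg, noncoding RNAs that carry small nucleolar RNAs and microRNAs, lie downstream of Meg3 and are active from the same chromosome. Rian had 6.80, 7.03 and 7.19 in d/d arrays and 7.25, 7.63 and 7.74 in f/f arrays (difference -0.54 ± 0.15 SE; limma adjusted p = 0.239), and the genotypes were 0.06 apart. The other 3 Rian probe sets also had differences below 0. The difference was -0.63 ± 0.22 SE in 1427580_a_at and -0.19 ± 0.14 SE in 1440001_at (limma adjusted p of 0.363 and 0.741), both with overlap. The last was dim on all arrays, with the genotypes 0.01 apart. Mirg had 3.13, 3.41 and 3.02 in d/d arrays and 3.05, 3.80 and 3.76 in f/f arrays (-0.35 ± 0.20 SE; limma adjusted p = 0.652), with overlap. The 4 measured genes of the domain, of 7 listed, thus all had differences below 0, with a median of -0.45, and 0 passed.

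Dlk1, the paternally expressed neighbour of Meg3, encodes an EGF-repeat membrane protein that holds back the maturation of fat cells. Its brighter probe set had 5.14, 4.76 and 5.27 in d/d arrays, against 5.63, 4.90 and 5.75 in f/f arrays. The genotypes overlapped, since f/f 2 lay below d/d 1 and d/d 3. The difference was -0.37 ± 0.23 SE, with a 95% interval of -0.89 to 0.15 and a limma adjusted p of 0.682. Without f/f 2 the difference was -0.63, and without f/f 3 it was -0.21. The other Dlk1 probe set was dim, at 2.08 to 2.17 in d/d arrays and 2.03 to 2.30 in f/f arrays. The order of the f/f arrays was opposite in Meg3 and Dlk1: f/f 2 was the highest f/f array for Meg3 and the lowest for Dlk1. Among the d/d arrays, d/d 3 was the highest for both genes. In Rian, f/f 3 was the highest f/f array, while it was the lowest for Meg3.

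Peg3 encodes a zinc finger protein active from the paternal chromosome. Its bright probe set had 7.06, 6.80 and 6.88 in d/d arrays, against 7.58, 7.26 and 7.37 in f/f arrays. All d/d arrays were below all f/f arrays, with 0.20 between the nearest values. The d/d mean was 0.713 times that of f/f (difference -0.49 ± 0.11 SE; 95% interval -0.75 to -0.23; limma adjusted p = 0.149). Without d/d 1 the difference was -0.56 with a limma adjusted p of 0.0572. Without each other array it was -0.56 to -0.40, with limma adjusted p of 0.244 to 0.504. Averaged over its 3 probe sets, which takes in the 2 dim ones, it was -0.16 (limma adjusted p = 0.509). The other 2 Peg3 probe sets lay between 1.27 and 1.54 in d/d arrays and between 1.15 and 1.56 in f/f arrays, and both were dim.

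Zim1, a zinc finger gene beside Peg3 that is active from the maternal chromosome, had 2.01, 1.93 and 1.83 in d/d arrays and 1.82, 1.67 and 1.61 in f/f arrays. All d/d values were above all f/f values, by 0.01 at the nearest pair. The difference was 0.22 ± 0.095 SE (unadjusted p = 0.0488; limma adjusted p = 0.505). All 6 values were dim. Of the other measured genes of this domain, Usp29 and Zim3 were dim on all arrays too.

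Mest, which encodes a protein of the hydrolase fold family and is tied to growth and to fat tissue expansion, had the largest SD of the 8 genes within d/d, while Dlk1 had the largest within f/f. Mest had 6.21, 7.21 and 7.30 in d/d arrays and 6.70, 6.72 and 7.46 in f/f arrays, an SD of 0.61 in d/d and 0.43 in f/f (n = 3 each). The difference of the means was -0.051 ± 0.31 SE (95% interval -0.76 to 0.66, unadjusted; limma adjusted p = 0.977). Without d/d 1, the lowest array, the difference was 0.30. In the other measured genes of the Mest domain, Copg2, a coat protein gene, had a difference of 0.19 ± 0.095 and Klf14, a transcription factor gene, of 0.19 ± 0.095 (SE; limma adjusted p of 0.580 and 0.565).

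Plagl1, a zinc finger transcription factor that acts on other imprinted genes, was nearly level. Its brightest probe set had 9.78, 9.73 and 9.87 in d/d arrays and 9.75, 9.65 and 9.93 in f/f arrays. The genotypes overlapped, with a difference of 0.016 ± 0.10 SE and a 95% interval of -0.22 to 0.25 (limma adjusted p = 0.977). The next probe set had 3.87, 4.35 and 4.22 in d/d arrays and 4.05, 4.42 and 3.93 in f/f arrays. The last one was dim, with a difference of -0.22 ± 0.10 SE (limma adjusted p = 0.544).

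Grb10 encodes an adaptor that restrains signalling from the insulin and IGF receptors. Its bright probe set had 8.33, 8.57 and 8.62 in d/d arrays and 8.50, 8.50 and 8.77 in f/f arrays. The genotypes overlapped, with a difference of -0.084 ± 0.12 SE and a 95% interval of -0.36 to 0.19 (limma adjusted p = 0.889). The other 2 probe sets, between 1.91 and 3.11 in d/d arrays and between 1.94 and 3.11 in f/f arrays, were dim on 1 or more arrays. Cobl, an actin-organising gene listed with the Grb10 domain, had 6.81, 6.25 and 6.09 in d/d arrays and 5.76, 5.71 and 5.36 in f/f arrays (difference 0.77 ± 0.19 SE; limma adjusted p = 0.171).

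Ndn encodes necdin, a MAGE family protein that restrains cell division. Its brightest probe set had 8.99, 8.74 and 8.43 in d/d arrays and 8.83, 8.47 and 8.64 in f/f arrays. All 4 bright Ndn probe sets overlapped between genotypes, with differences of 0.041 to 0.095 and limma adjusted p of 0.920 to 0.956. In all 4, d/d 1 was the highest and d/d 3 the lowest d/d array, and f/f 1 was the highest f/f array. The 3 dim Ndn probe sets lay between 1.34 and 2.08 in d/d arrays and between 1.30 and 2.18 in f/f arrays. Without d/d 1 the difference of the brightest was -0.065. Atp10a, a lipid flippase gene listed with the Ndn domain, had 4.43, 3.73 and 3.84 in d/d arrays and 4.54, 4.94 and 4.73 in f/f arrays (-0.73 ± 0.19 SE; limma adjusted p = 0.189). It passed without d/d 1, at -0.95 with a limma adjusted p of 0.0110, but not without any other single array. All 4 of its probe sets had d/d below f/f without overlap, 2 of them above 2.69 on all arrays and the others dim on all arrays.

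**Figure D3:**
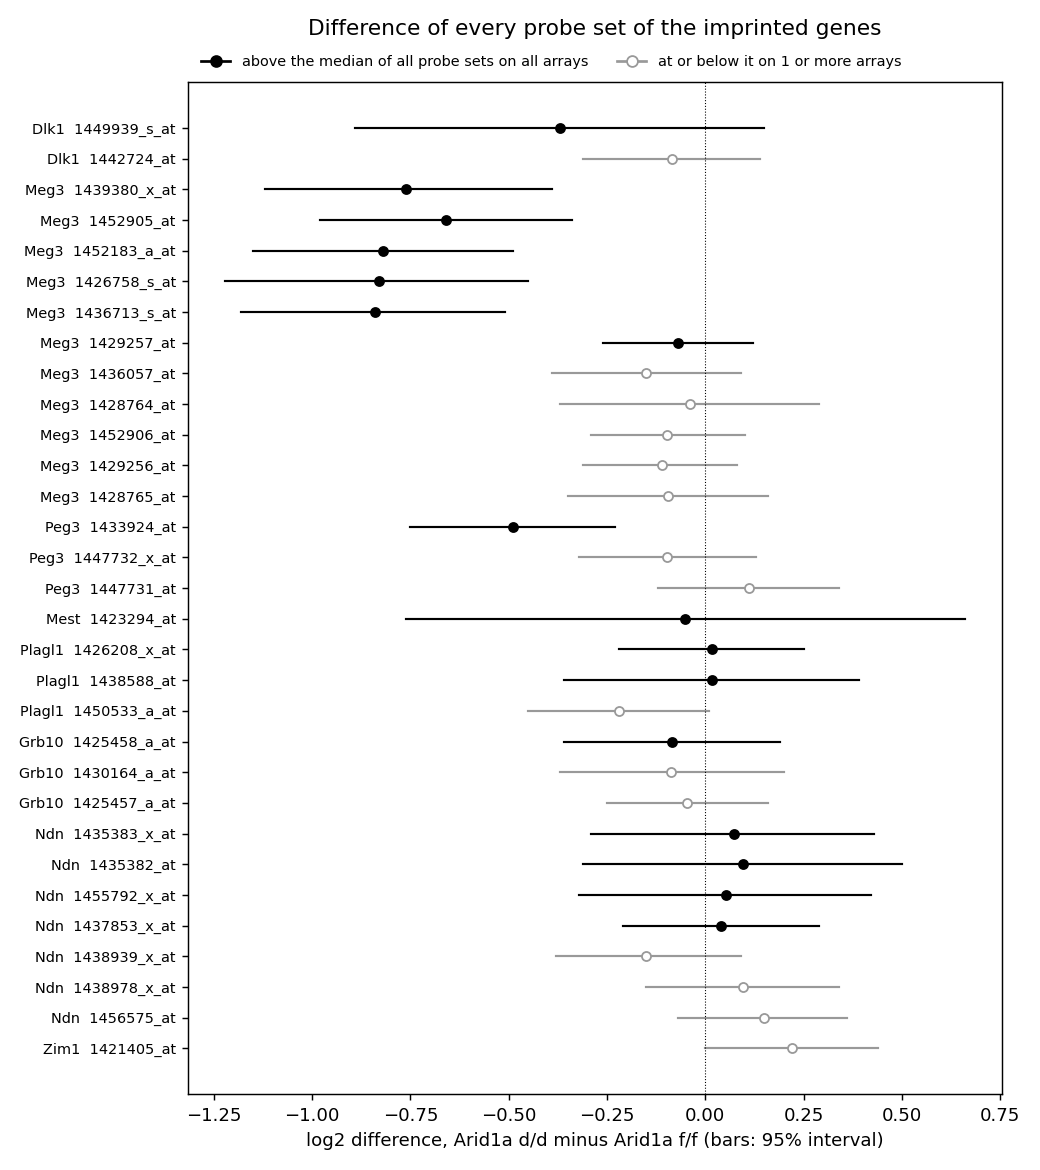
Log2 difference, Arid1a d/d minus Arid1a f/f (x axis), with 95% intervals for all 31 probe sets of the imprinted genes (y axis). Filled points are above 2.69 on all arrays; 5 Meg3 probe sets and 1 Peg3 probe set have intervals wholly below 0 before adjustment, and none passed after it.

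H19, a growth-restraining noncoding RNA that also carries a microRNA, is on the array only in the probe set 1448194_a_at, which is annotated with both H19 and Mir675 and therefore falls outside the rule. That probe set had 7.88, 7.82 and 8.18 in d/d arrays and 8.38, 7.98 and 8.40 in f/f arrays. The genotypes overlapped, with a difference of -0.30 ± 0.15 SE (limma adjusted p = 0.567). Igf2, the growth factor gene that shares enhancers with H19, had 7.69, 7.58 and 7.73 in d/d arrays and 8.10, 7.78 and 8.08 in f/f arrays (-0.32 ± 0.11 SE; limma adjusted p = 0.361), with the genotypes 0.05 apart. The Kcnq1 domain, which holds the cell cycle inhibitor gene Cdkn1c, was measured through 8 of its 11 listed genes, and 0 passed. The smallest p-values there were those of Kcnq1ot1, the noncoding RNA of that domain, at 0.31 ± 0.13, and Ascl2, a transcription factor gene that was dim, at 0.27 ± 0.11 (SE; limma adjusted p of 0.467 and 0.477). The genotypes overlapped for Kcnq1ot1. Of its 6 probe sets 3 were above 2.69 on all arrays, and the others of these had differences of 0.002 ± 0.13 and -0.15 ± 0.11 (SE).

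Across 45 measured imprinted genes beyond the 10, of 61 listed, 0 passed in the limma fit, where 0.851% of all genes did by their brightest probe set. At an unadjusted p under 0.05 there were 13, or 28.9%, of which 9 were lower and 4 higher in d/d uteri, and the share over all genes was 12.6%, with 7.16% lower and 5.44% higher. The genotypes did not overlap in 9 that were lower and in 3 that were higher, beside 9.42% and 7.10% of all genes. Their median difference was -0.065, beside -0.011 over all genes, and 27 of 45 differences lay below 0. Which parental copies of these listed genes were active in the uterus was not measured. Outside the domains of the 10 genes, Asb4, a subunit gene of a ubiquitin ligase, had 2.05, 2.17 and 1.98 in d/d arrays and 2.68, 2.85 and 3.59 in f/f arrays (-0.97 ± 0.21 SE; limma adjusted p = 0.123), so that all d/d values and 1 f/f value were dim. Gatm, the first enzyme of creatine synthesis, had 6.08, 6.43 and 6.23 in d/d arrays and 5.62, 4.98 and 5.69 in f/f arrays (0.82 ± 0.19 SE; limma adjusted p = 0.146). H13, a signal peptide peptidase gene, and Nnat, a small membrane protein gene that was dim on all arrays, had differences of -0.40 ± 0.11 and -0.40 ± 0.16 (SE; limma adjusted p of 0.209 and 0.448).

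**Figure D4:**
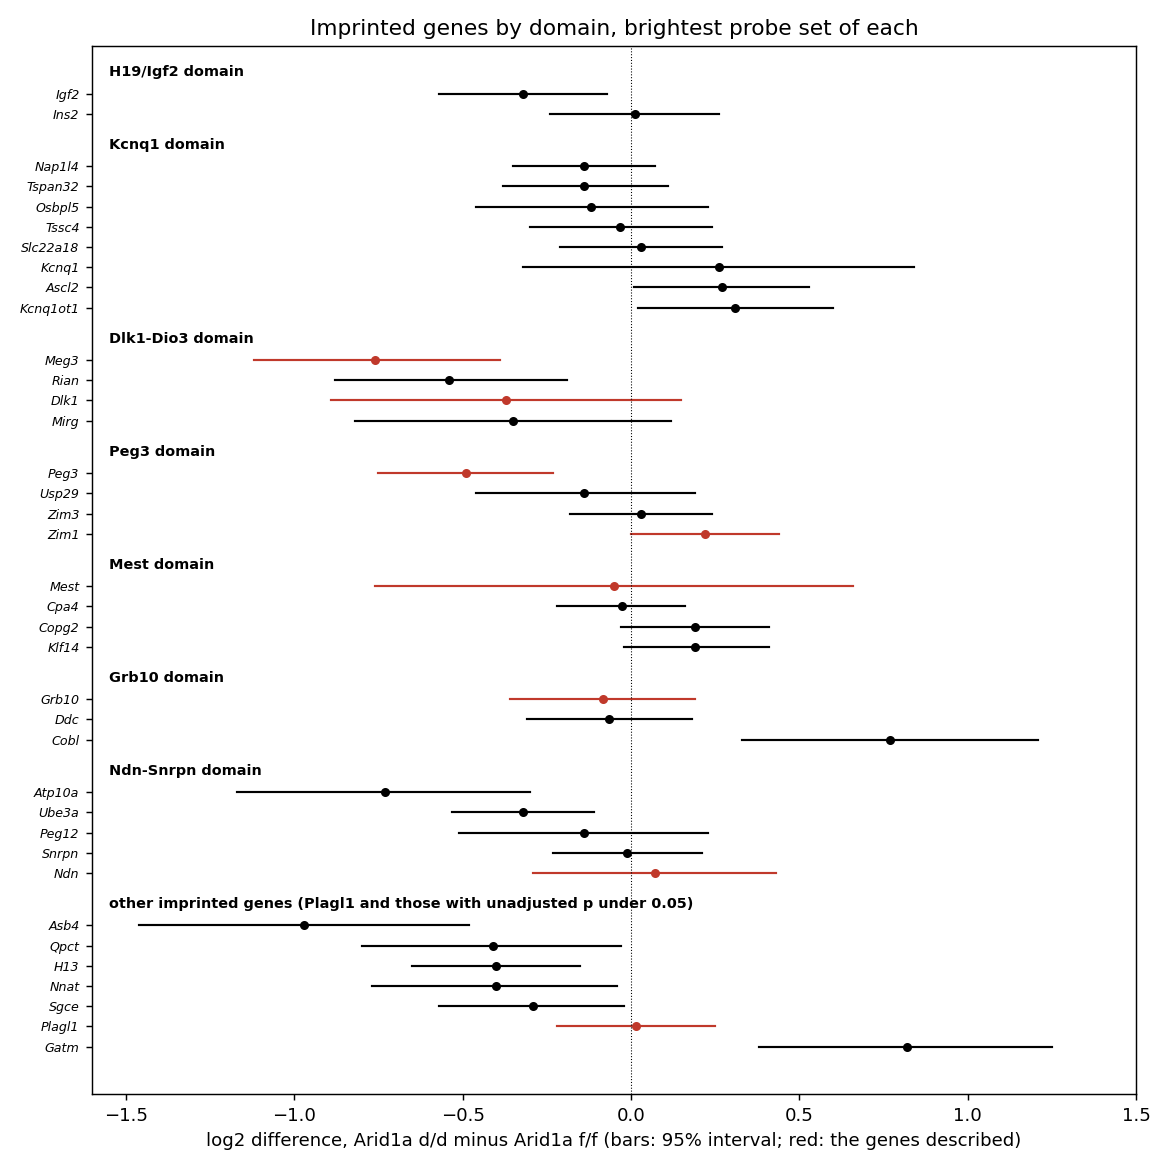
Log2 difference, Arid1a d/d minus Arid1a f/f (x axis), with 95% intervals of the brightest probe set of imprinted genes (y axis), grouped by the domain in which they lie, with the members in red; outside the domains, Plagl1 and the genes with an unadjusted p under 0.05 are drawn. The 4 genes of the Dlk1-Dio3 domain lie below 0, while other domains hold differences of both signs.

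Genes that keep imprints and genes that work with the growth programme were set beside them. Of 16 measured genes listed for imprint upkeep 0 passed, and the median difference was 0.12. At an unadjusted p under 0.05 in the limma fit there were 2, or 12.5%, both higher in d/d, where the share over all genes was 12.6%. Ctcf, the insulator protein of the H19 domain, had a difference of 0.22 ± 0.086 and Tet1, which oxidises methylated cytosine, of 0.33 ± 0.11 (SE; limma adjusted p of 0.438 and 0.326). Yy1, a zinc finger factor, and Dnmt1, which copies methylation after replication, had 0.21 ± 0.11 and 0.34 ± 0.19 (SE), with limma adjusted p of 0.571 and 0.649. Among the 17 partners of growth control that were measured, 1 rose and 0 fell, beside 0.506% and 0.345% of all genes, with a median difference of -0.022. The one that rose was Hmga2, a chromatin protein of fetal growth, with 7.12, 7.12 and 6.82 in d/d arrays and 6.18, 6.19 and 5.98 in f/f arrays (0.90 ± 0.12 SE; limma adjusted p = 0.0199). Every d/d array exceeded every f/f array, by 0.63 at the nearest pair. Hmga2 passed without d/d 1 (0.0142) and without d/d 3 (0.0410), but not without d/d 2 (0.103), f/f 1 (0.0606), f/f 2 (0.102) or f/f 3 (0.102). Igf1 had a difference of -0.39 ± 0.11 SE, and the receptor genes Igf1r and Insr, which Grb10 binds, had -0.13 ± 0.26 and -0.14 ± 0.19 (limma adjusted p of 0.239, 0.926 and 0.875).

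Within each genotype the genes did not share one order of arrays. Centred on their means over the 6 arrays, Mest stood at -0.73 in d/d 1 and 0.52 in f/f 3, while Ndn stood at 0.31 in d/d 1 and -0.05 in f/f 3. Meg3 stood at 0.75 in f/f 2, where Dlk1 stood at -0.34. By the root mean square difference of centred profiles over the 6 arrays, taken over 10978 other genes above the median level, the gene most like Meg3 was Prss12, a serine protease gene (0.0659), followed by Fancc, a DNA repair gene (0.108). Rasl12 (0.0322) and Il15ra (0.0410) were most like Peg3, Tril (0.0962) and Cpz (0.117) most like Dlk1, and Derl1 (0.0345) and Kremen1 (0.0389) most like Ndn. Arhgef39 (0.0901) and Phgdh (0.0903), an enzyme of serine synthesis, were most like Mest, Golim4 (0.0212) and Adgrl1 (0.0264) most like Plagl1, and Psmd8 (0.0212) and Brms1l (0.0255) most like Grb10. No member was among the 20 genes most like another member, and Mcts2, among the 20 most like Mest, was the 1 other imprinted gene in any of these sets. A profile of 6 arrays is short, and these distances are descriptions.

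**Figure D5:**
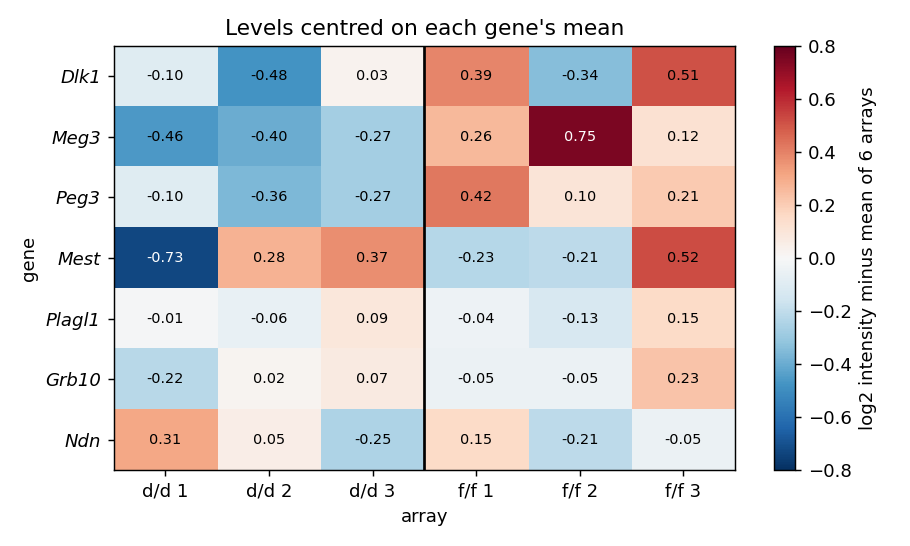
Log2 intensity minus the gene's mean over the 6 arrays (colour and printed value) for 7 imprinted genes (y axis) in d/d and f/f arrays (x axis). Meg3 and Peg3 are below their mean in all d/d arrays and above it in all f/f arrays, while Mest runs from -0.73 in d/d 1 to 0.52 in f/f 3; Zim1 is left out because it was dim.

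Markers of the tissue's cell types moved with genotype beside these genes, and in whole uteri fewer cells of a type and less RNA per cell cannot be told apart. All 8 stroma markers had differences below 0 (median -0.34), with a summed linear intensity of 11325 to 13331 in d/d arrays and 14341 to 15236 in f/f arrays. One, Thy1, fell (-1.06 ± 0.13 SE; limma adjusted p = 0.0169), beside 0.345% of all genes. Thy1 passed without d/d 1 (0.00384) and f/f 1 (0.0433) but not without d/d 2, d/d 3, f/f 2 or f/f 3 (0.0663 to 0.103). All 7 measured fat markers were below 0 (median -1.16), with sums of 263 to 555 in d/d arrays and 669 to 1064 in f/f arrays, and 0 passed. All 6 endothelium markers were below 0 (median -0.65), with sums of 426 to 593 in d/d arrays and 734 to 786 in f/f arrays, and 0 passed. All 6 simple epithelium markers were above 0 (median 0.62), with sums of 2878 to 3500 in d/d arrays and 1829 to 2160 in f/f arrays. In 5 of them d/d was higher without overlap, where this held for 7.10% of all genes. Of the 6, 2 rose, Muc1 and Cdh1 (limma adjusted p of 0.0205 and 0.0357), beside 0.506% of all genes. Both passed without d/d 1 (0.00198 and 0.0131) and neither without any other single array (0.0663 to 0.181). All 7 measured smooth muscle markers were below 0 (median -0.21), with sums of 4706 to 6280 in d/d arrays and 5780 to 6677 in f/f arrays, and 0 passed. Of 6 measured skeletal muscle markers 5 were below 0 (median -0.1), with sums of 236 to 347 in d/d arrays and 312 to 611 in f/f arrays, and 0 passed. All these sums of linear intensity weigh the brightest markers of a list most. Leukocyte, mesothelium, nerve and ovary markers had medians between -0.054 and 0.072. Of the 5 leukocyte markers, Cd68 was higher in d/d without overlap (0.46 ± 0.086 SE; limma adjusted p = 0.0736). Cd3d was lower without overlap (-0.36 ± 0.10 SE; limma adjusted p = 0.236), and the rest overlapped between genotypes. The part of these markers in the lower Meg3 and Peg3 levels was not tested.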

How the data were processed

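Per the labels, each array took biotin-labelled cRNA prepared from 500 ng of uterine total RNA. The authors deposited linear intensity values per probe set, and the submitters' processing notes name RMA with no version or settings. RMA corrects background, equalises array distributions and summarises probes, which compresses differences of dim probe sets. The genome build is not given in the sources used here, and precision is limited by the number of arrays.

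The design had assumed log2 values, so log2 was taken with no added constant. Of 41420 probe sets, 31562 had 1 gene symbol, 830 several and 9028 none. The test was limma 3.58.1 under R 4.3.3 (lmFit, eBayes without trend or robust estimation, 2-sided, no covariate, 4 residual and 4.19 prior degrees of freedom), and the steps were tested on simulated data. A gene is given by its brightest single-symbol probe set, of 16813 genes. The rule names all members, the genes of each list past the threshold or up to 4 of smallest p where none passed, the 2 genes most like each member and Arid1a. Named outside it, after their values were seen, are Esr1, Pgr, Hoxa10, Hoxa11, Star, Cyp11a1, Hsd3b1, Foxl2, Amh, Fshr, Mcts2, Igf1, Igf1r and Insr. The members and lists were chosen with earlier results of these data known. The alternatives tried are given with their effect in the closing section.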

Additional observations from a re-analysis of the deposited data

How the results depend on the processing

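No member passed under 11 of 18 alternatives. Meg3 gave every member call in the others except 2 at an unadjusted p: 1 probe set with array weights and 2 each with an intensity trend and robust variance, with median centring and with the replicate number as a block. At an adjusted p under 0.10 there were 3, and at an unadjusted p under 0.05 there were 7, those of Peg3 and Zim1 included. All probe sets past the threshold numbered 329 with array weights, 574 with the replicate block, 462 at an adjusted p under 0.10 and 4079 at an unadjusted p. With the block, the Meg3 probe sets 1436713_s_at and 1452183_a_at had limma adjusted p of 0.0349 and 0.0420. Imprinted genes beyond the members numbered 2 with the replicate block, Cobl and Rian (0.0313 and 0.0436), and 13 at an unadjusted p. The replicate numbers were not taken as pairing the arrays, since deviations from genotype means correlated at 0.461, 0.0228 and 0.178 for numbers 1, 2 and 3. With each array left out in turn, all probe sets ranged from 37 to 971, member probe sets from 0 to 1, imprinted genes from 0 to 1, and the members' median difference from -0.19 to 0.038. Without single arrays the Meg3 difference was -0.88 to -0.57, Peg3 -0.56 to -0.40, Dlk1 -0.63 to -0.21 and Zim1 0.18 to 0.28, and the sign of these 4 did not turn under any alternative that gave a value. Over the same arrays left out, Mest ran from -0.25 to 0.30, Plagl1 from -0.047 to 0.094, Grb10 from -0.14 to 0.008 and Ndn from -0.065 to 0.22.

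Near-zero differences turned sign with neither side past the threshold. Mest was 0.024 with array weights, 0.30 without d/d 1 and 0.20 without f/f 3. Plagl1 was -0.061 with the mean of its probe sets, -0.023 without d/d 3 and -0.047 without f/f 2. Grb10 was 0.006 without d/d 1 and 0.008 without f/f 3, and Ndn -0.065 without d/d 1 and -0.016 without f/f 2. The looser thresholds raise counts by construction, and otherwise the cause was not tested. Background limits the 15 member probe sets that were dim on 1 or more arrays. The brightest Meg3, Plagl1 and Ndn probe sets and 8 member probe sets in all have no value without _x_at probe sets, and Zim1 none under the filter on dim ones.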
